A study of Mus musculus with 4 samples.

Results

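The miR-30 family is a set of microRNAs (miRNAs) that start with the same bases. Its 6 loci in the lists of whole blood small RNA were taken by name out of 374 annotated loci: mmu-mir-30a, mmu-mir-30b, mmu-mir-30c-1, mmu-mir-30c-2, mmu-mir-30d and mmu-mir-30e, below without the mouse prefix. The 2 copies of miR-30c yield 1 mature sequence and were counted from the same reads, so the 6 loci hold 5 sequences. The blood came from Balb/c mice, an inbred strain, at an age of 180 days. Control mice drank plain water (2 libraries), and cadmium mice drank water with cadmium, a toxic metal, ad libitum (2 libraries). The sources used here give neither the dose nor the length of exposure. Nor do they say that each library is another animal, so a p-value sets a difference against a spread between libraries that may be technical. The question is how the members of the family stand in blood with and without cadmium.

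A miRNA guides a silencing complex to messenger RNAs that pair with its seed, bases 2 to 8, and bases further along can add to the pairing. Members of the miR-30 family therefore share many targets. The family is known from kidney podocytes and other epithelia, from fat cell differentiation, from autophagy through Beclin 1, and from B cells through the plasma cell regulator Blimp-1. Whole blood mixes red cells, platelets, white cells and plasma, and in such bulk samples fewer cells of a type and less RNA per cell cannot be told apart.

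The 5 mature sequences are shown as deposited, 5′ to 3′, with the seed in capitals. The seed is the same in all 5, so the sequences differ only in the bases after it.
miR-30a: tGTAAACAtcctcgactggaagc
miR-30d: tGTAAACAtccccgactggaagc
miR-30e: tGTAAACAtccttgactggaagc
miR-30c: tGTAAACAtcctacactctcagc
miR-30b: tGTAAACAtcctacactcagc
All 5 share their first 11 bases. Counted from the 5′ end, miR-30a differs from miR-30d only by T12C and from miR-30e only by C13T, and these 3 end alike over 10 bases. miR-30c departs from miR-30a at 5 positions, C13A, G14C, G18C, G19T and A20C. miR-30b shares the first 18 bases of miR-30c and is 2 bases shorter. The sequences thus fall into miR-30a, miR-30d and miR-30e on one side and miR-30b and miR-30c on the other. GC content was 47.8%, 52.2% and 43.5% in miR-30a, miR-30d and miR-30e, at or above the 43.5% and 42.9% of miR-30c and miR-30b, with a tie between miR-30e and miR-30c. Its part in the results was not tested. How many mismatches the authors' counting allowed is not given in the sources used here, so reads could be split wrongly between miR-30a, miR-30d and miR-30e, and these 3 levels are uncertain to that extent.

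The loci lie in 3 pairs, and each pair joins one sequence of either kind. Coordinates are 1-based on mm10, and annotation is that of GENCODE M21. On chromosome 1, plus strand, miR-30a (chr1:23272274-23272296) lies outside any other annotated gene, and miR-30c-2 (chr1:23291714-23291736) lies in an exon of the long noncoding RNA gene Gm27028, with 19417 bases between the counted windows. On chromosome 15, minus strand, miR-30d (chr15:68341256-68341278) lies in an exon of the long noncoding RNA gene Gm20732. Its partner miR-30b (chr15:68337470-68337490), 3765 bases away, lies outside other annotated genes. On chromosome 4, minus strand, miR-30e (chr4:120772659-120772681) and miR-30c-1 (chr4:120769584-120769606) both lie in introns of Nfyc, the gene of a subunit of the CCAAT-binding factor NF-Y, with 3052 bases between them.

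RefSeq hairpins (GRCm38.p6), matched by symbol for 4 of the 6 loci, show where the counted reads come from. The counted window is in capitals.
Mir30a: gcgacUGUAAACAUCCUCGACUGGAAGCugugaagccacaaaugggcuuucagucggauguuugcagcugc
Mir30c-2: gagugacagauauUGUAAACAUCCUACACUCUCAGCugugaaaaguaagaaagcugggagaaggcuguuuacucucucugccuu
Mir30e: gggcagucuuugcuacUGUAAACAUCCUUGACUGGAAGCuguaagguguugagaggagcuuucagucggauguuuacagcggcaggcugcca
Mir30c-1: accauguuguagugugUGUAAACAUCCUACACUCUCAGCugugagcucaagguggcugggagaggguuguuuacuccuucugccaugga
Each window is on the 5′ arm. It starts at the first base of the RefSeq mature sequence, and ends 1 base later than it for miR-30a and miR-30e and at the same base for miR-30c. All 6 loci were listed in all 4 libraries with the same window, so no difference below comes with a shifted window. The other arm of these hairpins was not analysed here. No other annotated or predicted locus with the miR-30 seed was listed in the 3 libraries whose sequences can be read, and miR-30f and miR-384, named here as relatives of the family, were in no list.

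The libraries differed in depth with the groups. Counts summed over annotated loci, copies included, were 24622926 to 35244119 in a control library and 14383852 to 15565712 in a cadmium library. With each mature sequence counted once, they were 15158576 to 21413445 in a control library and 8889842 to 9570319 in a cadmium library. The cadmium pair lay closer together (Pearson r of log2 CPM across loci 0.998) than the control pair (0.992). Both pairs differed by more than sampling noise, with a chi-square per degree of freedom of 60.8 and 1023. The red cell list had a summed level of 444078 to 461628 CPM in controls and 347542 to 361231 CPM with cadmium. Its most abundant member, miR-486, fell (-0.60 ± 0.07 on the log2 scale, edgeR adjusted p = 0.00204). It made up much of that sum, at a mean of 253127 CPM in controls and 167228 CPM with cadmium. The list did not fall as a whole: its median was 0.00, with 1 of 10 sequences called higher and 3 lower. miR-16, the next most abundant, had -0.04 ± 0.07. CPM here are counts scaled to a common library total over the tested loci, copies included. The scaling used TMM normalization, which sets library factors from the bulk of loci. What part depth or the red cell miRNAs have in the results below was not tested.

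With cadmium, miR-30a and miR-30e fell and miR-30c rose, while miR-30d stood lower and miR-30b higher without passing the threshold. miR-30a was 1.58-fold lower and miR-30e 1.33-fold lower, and miR-30c was 1.5-fold higher. The 3 sequences that end alike were thus all lower, and the other 2 both higher. These 3 were also more abundant than the other 2, so ending and level cannot be told apart here. Of the 6 loci, 4 passed an edgeR adjusted p of 0.05 (2 higher, the copies of miR-30c with the same reads, and 2 lower), against 14.5% of all 276 tested loci, 7.97% higher and 6.52% lower. In all 6 loci the groups did not overlap, and the same held for 69.9% of tested loci, 39.5% with cadmium higher and 30.4% with cadmium lower.

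The most abundant member was miR-30e (mmu-mir-30e), made from an intron of Nfyc. It was the fifth of all tested loci by mean level, where copies of a sequence rank as separate loci. It stood at 34374 CPM in control 1 and 41143 CPM in control 2, against 27660 CPM in cadmium 1 and 29081 CPM in cadmium 2. Its controls were the furthest apart of the family, at 37759 ± 4787 CPM against 28370 ± 1005 CPM (SD, n = 2 each). The log2 fold change was -0.41 ± 0.11 (SE, edgeR adjusted p = 0.0378). The call was lost in 10 of 15 alternative settings, and the value shrank to -0.12 with total counts and to -0.18 with the upper quartile.

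miR-30a (mmu-mir-30a), the member known to act on Beclin 1, stood at 27781 and 27932 CPM in the controls, and at 17253 and 17961 CPM with cadmium. Its controls were nearly equal, and both cadmium libraries lay well below them (27856 ± 106 against 17607 ± 501 CPM, SD, n = 2 each). The fall of 0.66 ± 0.09 on the log2 scale (edgeR adjusted p = 0.00294) was the largest of the family in size. The call, not the direction, was lost with the upper quartile (-0.42, edgeR adjusted p = 0.0824), without cadmium 1 (-0.63, edgeR adjusted p = 0.126) and without cadmium 2 (-0.69, edgeR adjusted p = 0.0587).

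miR-30d (mmu-mir-30d), which differs from miR-30a by 1 base, stood at 9340 and 8573 CPM in the controls, and at 6894 and 7161 CPM with cadmium. The groups did not overlap, but the log2 fold change of -0.35 ± 0.10 did not pass (edgeR adjusted p = 0.0674). It passed in 3 of the 15 alternatives, such as DESeq2 size factors (-0.44, edgeR adjusted p = 0.0329), and with total counts it was close to 0 (-0.05, edgeR adjusted p = 0.808).

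miR-30c (mmu-mir-30c-1 and mmu-mir-30c-2) has loci on chromosomes 1 and 4, and its reads cannot be divided between them. It stood at 4014 and 3729 CPM in the controls and at 5760 and 5817 CPM with cadmium. Both cadmium libraries lay above both controls (3871 ± 202 against 5788 ± 40.6 CPM, SD, n = 2 each). Its rise of 0.58 ± 0.11 on the log2 scale passed the threshold (edgeR adjusted p = 0.0114). It ranged from 0.49 with DESeq2 size factors to 0.88 with total counts. It did not pass with the DESeq2 test (0.49, adjusted p = 0.0619), nor without cadmium 1 (0.59, edgeR adjusted p = 0.265) or cadmium 2 (0.57, edgeR adjusted p = 0.257).

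miR-30b (mmu-mir-30b), the least abundant member, stood at 895 and 905 CPM in the controls, and at 1184 and 1133 CPM with cadmium. The cadmium libraries were both higher, at a log2 fold change of 0.36 ± 0.14 that did not pass (edgeR adjusted p = 0.114). It passed in 5 of the 15 alternatives, such as total counts (0.66, edgeR adjusted p = 0.0182).

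**Figure D1:**
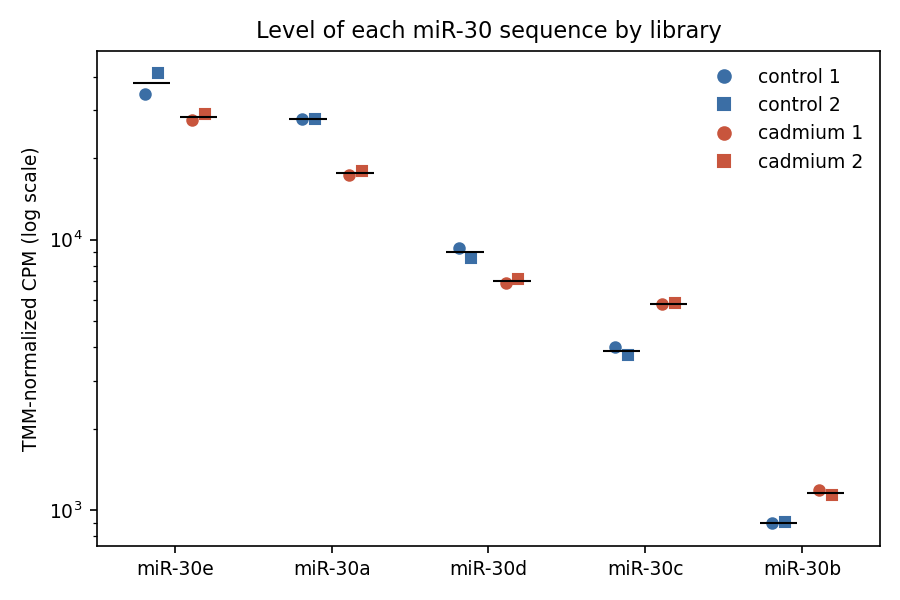
TMM-normalized CPM (log axis) of each miR-30 sequence, with 1 point per library and a black line at the mean of each group's 2 libraries. The cadmium points lie below the control points for miR-30e, miR-30a and miR-30d and above them for miR-30c and miR-30b; the control levels of miR-30e are 34374 and 41143 CPM.

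The order of levels was the same in all 4 libraries, miR-30e above miR-30a, miR-30d, miR-30c and miR-30b. Within each group, no library of one sequence overlapped one of its neighbour in this order. The counts are not corrected for how well each sequence is captured, so this is an order of reads.

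The direction of all 5 sequences was the same in each of the 15 alternatives, which cover 4 other scalings, other filters and tests, the replicate number as a block, and each library left out. The calls were less stable. With the DESeq2 test 1 of 6 passed, miR-30a, against 13.8% of loci, and with 1 locus per mature sequence 2 of 5, miR-30a and miR-30c, against 13.7%. Without cadmium 1 or cadmium 2, 0 of 6 loci passed, against 2.89% and 3.25% of all loci, and without control 1 or control 2 all 6 passed, against 38.2% and 44.5%.

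**Figure D2:**
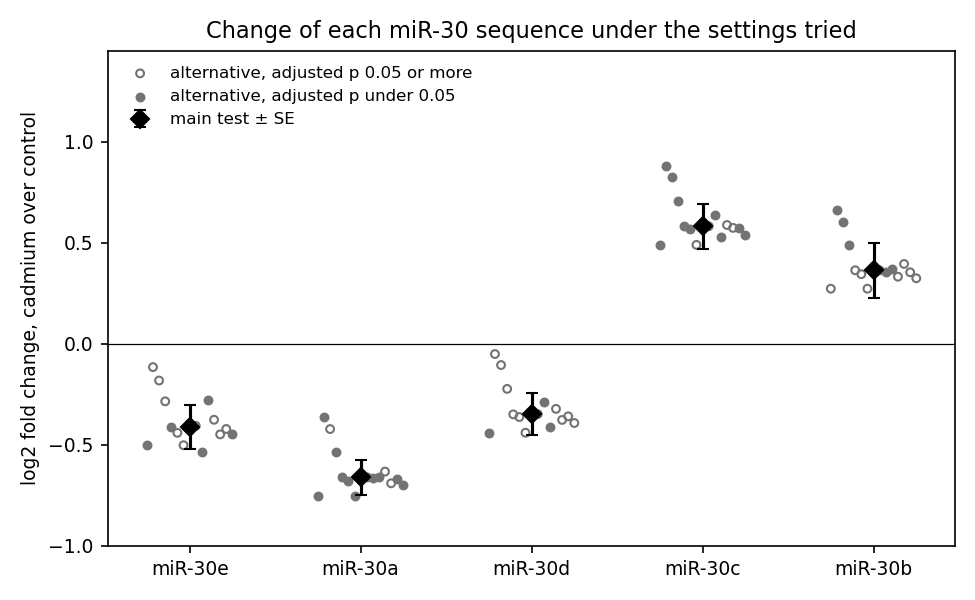
Log2 fold change of cadmium over control (vertical axis) for each miR-30 sequence, from the main edgeR test with its SE (diamond) and from the alternatives (circles, filled where the adjusted p was under 0.05). No sequence crosses 0; miR-30e and miR-30d come closest to it, at -0.12 and -0.05 with total counts.

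A share of the family's own reads needs no scaling between libraries. With miR-30c counted once, the family held 2400907 reads in control 1, 1845748 in control 2, 950394 in cadmium 1 and 1039307 in cadmium 2. miR-30b and miR-30c together held 6.43% and 5.63% of them in the controls, and 11.8% and 11.4% with cadmium. Their joint share was thus higher in both cadmium libraries, at 11.6% ± 0.321 against 6.03% ± 0.561 (SD, n = 2 each), a step of 5.56 percentage points. Permuting 2 against 2 libraries (exact test, two-sided) gave p = 0.33, the smallest it can give. This joining of sequences was chosen after their values were seen.

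By member, the share of miR-30c was 5.25% and 4.53% in the controls and 9.80% and 9.51% with cadmium. That of miR-30b was 1.17% and 1.10% in the controls, and 2.01% and 1.85% with cadmium. Against these gains stood miR-30a alone, at 36.4% and 33.9% in the controls and 29.4% in both cadmium libraries. The 2 largest remaining shares did not separate the groups. miR-30e held 45.0% and 50.002% in the controls and 47.1% and 47.6% with cadmium, and miR-30d 12.2% and 10.4% against 11.7% in both. The direction of their steps turned with the control left out: -2.69 points without control 1 and 2.33 without control 2 for miR-30e, and 1.30 and -0.50 for miR-30d. The widest 95% Wilson interval of any member's share spanned 0.201 percentage points and covers counting error only. The exact permutation p was 0.33 for miR-30a, miR-30b and miR-30c and 1 for miR-30d and miR-30e.

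**Figure D3:**
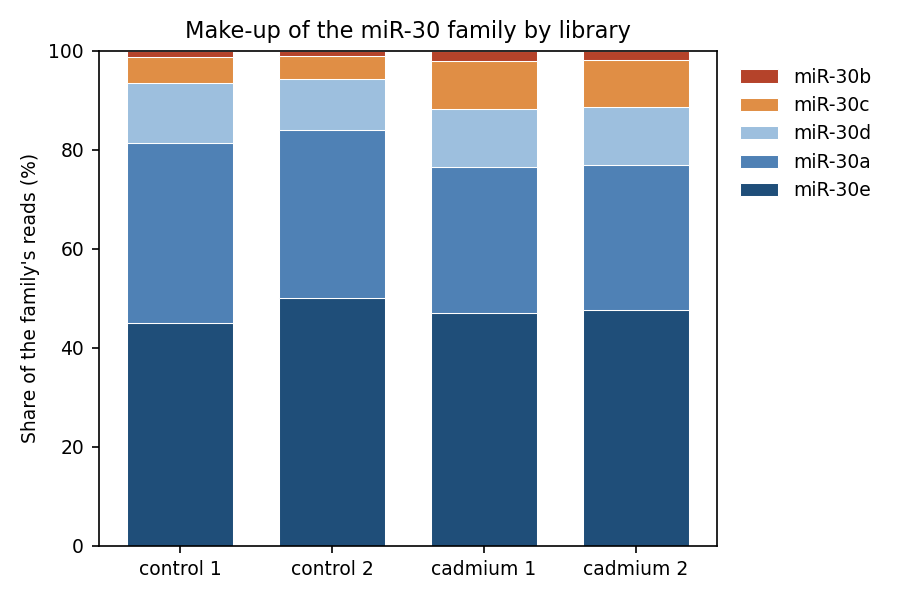
Share of the family's reads (vertical axis, percent) held by each miR-30 sequence in each library, with miR-30c counted once. The orange and red parts at the top, miR-30c and miR-30b, reach 6.43% and 5.63% in the controls and 11.8% and 11.4% with cadmium.

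Whether a member changed differently from its family was tested in 1 model over all seed families with 2 or more sequences (75 sequences in 28 families), with edgeR's diffSpliceDGE, a test made for exons of a gene. Each sequence's log2 fold change is set against that of the summed reads of its family, so a common scaling factor of a library cancels. miR-30c departed upward from the family by 0.98 (edgeR adjusted p = 0.000344) and miR-30b by 0.77 (edgeR adjusted p = 0.0118). Thus 2 of the 5 sequences departed, both upward, against 13.3% of the 75 sequences in either direction, 9.33% upward and 4% downward. miR-30a, miR-30d and miR-30e had departures of -0.26, 0.05 and -0.01 (edgeR adjusted p = 0.750 for miR-30a and 0.9999 for the other two). They hold most of the family's reads, which ties the family's value to theirs. Both departures lost their call without cadmium 1 (edgeR adjusted p = 0.156 for miR-30c and 0.404 for miR-30b) and without cadmium 2 (0.0814 and 0.257), where 0 of 76 sequences passed and 9 and 8 had an unadjusted p under 0.05. Both passed without control 1 or control 2, as did 23% and 21.1% of sequences. Their sizes stayed between 0.88 and 1.09 for miR-30c and between 0.71 and 0.83 for miR-30b.

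Within each genomic pair the balance shifted toward the partner of the miR-30b and miR-30c kind. Reads of miR-30a were 6.92 and 7.49 times those of miR-30c-2 in the controls, and 2.995 and 3.09 times with cadmium. The log2 ratio fell by 1.24, or 2.37-fold, from 2.85 ± 0.08 to 1.60 ± 0.03 (SD, n = 2 each). Neither cadmium library came near a control. For the Nfyc pair, miR-30e over miR-30c-1 was 8.56 and 11.03 in the controls and 4.80 and 4.999 with cadmium, a 1.98-fold fall of the ratio. The miR-30c reads enter both of these ratios whole, as they cannot be divided between its 2 loci, so they are not independent of each other.

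The pair of miR-30d and miR-30b has no such copy, as each sequence has 1 listed locus. Reads of miR-30d were 10.4 and 9.47 times those of miR-30b in the controls, and 5.82 and 6.32 times with cadmium. The ratio was thus lower in both cadmium libraries, by 1.64-fold (log2 ratio 3.31 ± 0.10 against 2.60 ± 0.08, SD, n = 2 each). For each of the 3 pairs the exact permutation p was 0.33, the smallest that 2 against 2 libraries allow, and leaving out any library kept the direction.

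Among the sequences that end alike, ratios moved less. The ratio of miR-30a to miR-30e was 0.808 and 0.679 in the controls and 0.624 and 0.618 with cadmium, a 1.19-fold fall. The ratio of miR-30a to miR-30d was 2.97 and 3.26 against 2.50 and 2.51, a 1.24-fold fall. That of miR-30d to miR-30e was 0.272 and 0.208 in the controls, and 0.249 and 0.246 with cadmium, so that both cadmium values lay between the controls. The ratio of miR-30c to miR-30b was 4.48 and 4.12 in the controls and 4.87 and 5.13 with cadmium, a 1.16-fold rise. Each of these steps was smaller than the step of any genomic pair, by values alone. Every genomic pair, however, sets sequences of different kinds against each other. The summed reads of miR-30a, miR-30d and miR-30e over those of miR-30b and miR-30c fell 2.05-fold as a ratio. Sequences of different kinds that are not partners were not compared, so the part of genomic pairing was not tested.

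**Figure D4:**
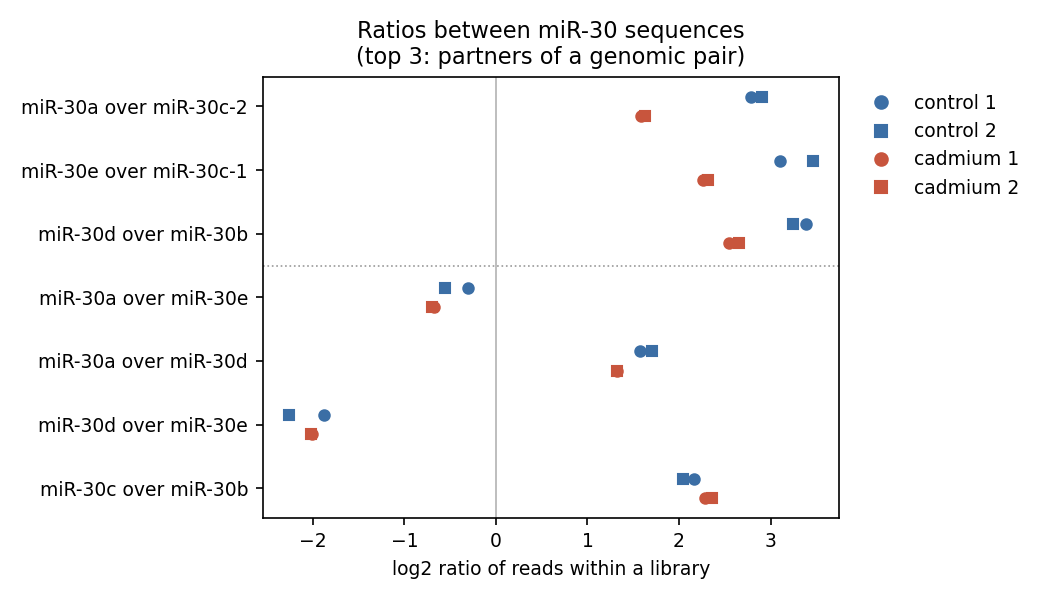
Log2 ratio of reads between 2 miR-30 sequences within each library (horizontal axis); the rows above the dotted line are genomic pairs and those below compare sequences of the same kind. In the 3 genomic pairs the cadmium libraries lie left of the controls, by 1.24, 0.99 and 0.71 on the log2 scale from top to bottom.

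The family as a whole held 11.2% and 12.2% of the annotated reads in the controls and 10.7% and 10.9% with cadmium, each mature sequence counted once. The groups did not overlap, at 11.7% ± 0.682 and 10.8% ± 0.119 (SD, n = 2 each, exact permutation p = 0.33). The step was -0.92 percentage points, and it was -1.40 without control 1 and -0.44 without control 2. With every listed locus in the total, copies included, the shares were 7.17% and 7.84% against 7.26% and 7.31%, and the groups overlapped. Without the 2 sequences that hold over 10% of the reads, the shares were 26.5% and 27.8% against 22.6% and 23.6%. The step of the whole family thus depends on the total it is set against.

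Other families with a shared seed give a measure of how far members can part. The log2 fold changes of the miR-30 sequences ran from -0.66 to 0.58, a range of 1.24, the fourth widest of 28 families, whose median range was 0.72. Of the 10 families whose members all had a mean of at least 100 CPM, the miR-30 range was the widest, and the median was 0.85. Families with more members have wider ranges by their number alone, and 7 of these 10 have 2 members while miR-30 has 5. In 2 of the 28 families members passed the threshold in both directions, miR-30 and the family of miR-15 and miR-16.

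**Figure D5:**
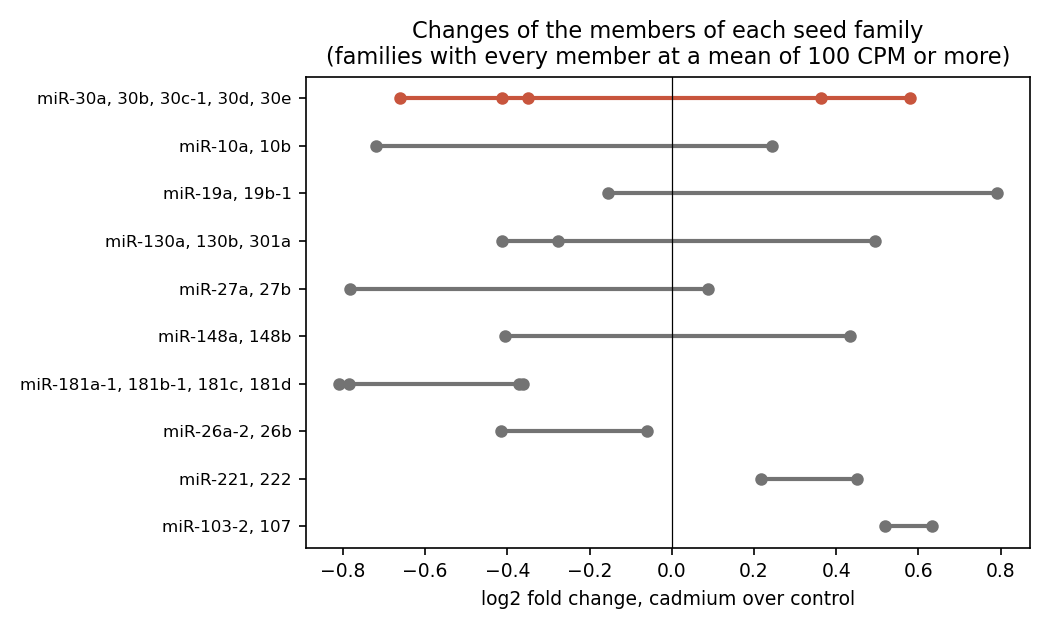
Log2 fold change of cadmium over control (horizontal axis) for each sequence of the 10 seed families whose members all had a mean of at least 100 CPM, with a line from the lowest to the highest member. The miR-30 family (red) runs from -0.66 to 0.58, with 3 members below 0 and 2 above.

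The summed reads of the family were nearest in profile to miR-181d, miR-191 and miR-301a, among sequences outside it. Likeness was the Euclidean distance between log2 CPM values centred on their mean over the 4 libraries, and it was 0.10, 0.11 and 0.13. Their log2 fold changes were -0.37, -0.38 and -0.41. With 4 libraries such a likeness mostly reflects a similar step between the groups.

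Lists of miRNAs known from blood cells and from epithelia were set beside the family, with each sequence counted once. Over all tested sequences 19 (9.0%) were higher and 16 (7.58%) lower (median 0.10). Of 10 red cell sequences 1 was higher and 3 were lower, with a median of 0.00 and miR-16, which is abundant in red cells, had -0.04 ± 0.07. Of 9 lymphocyte sequences 1 was lower and 0 were higher (median -0.37). The lower one was miR-181a at -0.81 ± 0.16 (edgeR adjusted p = 0.0133), and miR-181c had -0.36 ± 0.13. The list's miR-29a, miR-29b and miR-29c went the other way, from 0.16 to 0.83, without passing. The summed level of that list was 6756 to 8126 CPM in controls and 5157 to 5275 CPM with cadmium. Most of it came from the miR-181 sequences, at 5586 CPM together as a mean of both groups.

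Of 8 myeloid sequences 1 was higher and 0 were lower (median 0.26), and their summed level overlapped between the groups, at 5841 to 6362 and 5596 to 6390 CPM. Their most abundant members were miR-142 (-0.07 ± 0.12) and miR-27a (0.09 ± 0.20). Of 4 platelet sequences 0 passed (median 0.03). The most abundant were miR-221 (0.22 ± 0.14) and miR-222 (0.45 ± 0.16), both above that median, so the rest of the list stood lower than these. The summed level of the 4 was 1820 to 1921 CPM in controls and 2072 to 2284 CPM with cadmium. Most of it was miR-221, at a mean of 1348 CPM in controls and 1568 CPM with cadmium. The kidney and epithelium list, tissues in which the miR-30 family is known to be abundant, had 2 lower and 0 higher of 12 sequences (median -0.16). Its summed level was 5069 to 5091 CPM in controls and 4983 to 5020 CPM with cadmium, with miR-10a at 0.24 ± 0.13 and miR-192 at -0.24 ± 0.16. The defining miRNAs miR-451 of red cells and miR-223 of myeloid cells had no annotated locus listed in any library, so the summed levels lack them. Which cells the miR-30 reads come from was not tested.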

How the data were processed

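Small RNA was sequenced from whole blood, in 4 libraries. Each deposited file gives a count of mature reads per locus, in whole numbers without normalization. Total RNA was isolated with the miRNeasy kit, per the labels' protocols. Bowtie 0.12.2, DESeq and build mm10 are named per the submitters' processing notes, and their roles are not given there.

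Cadmium 1 has an unnamed row that equals its total, and it was not used. The lowest listed count was 5, so an unlisted locus is not a measured 0. Star names with the same locus and count were merged. In control 2 only 162 of 693 listed sequences match the length of their window, so its sequences were not used. Tested were annotated loci listed in all 4 libraries with overlapping windows, 277 loci, of which filterByExpr removed 1.

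The main test was edgeR 4.0.16 in R 4.3.3: quasi-likelihood F test, TMM, group as the only term, 2 residual degrees of freedom, two-sided, Benjamini-Hochberg over all tested loci, threshold 0.05. SE is the fold change on the log2 scale over the root of F. The fit and diffSpliceDGE (1 locus per mature sequence) were tested on simulated data. Alternatives used DESeq2 1.42.0 and limma 3.58.1. Shares have 95% Wilson intervals; without molecular identifiers these cover counting error only. Shares and plots used SciPy 1.17.1, pandas 2.3.3 and matplotlib 3.10.9 under Python 3.11.15. Named are all 6 loci, the 3 sequences nearest in profile, and the 2 most abundant members of each list. The miR-29 sequences of the lymphocyte list are named as well, because they went against its median. The members and lists were chosen with earlier results of these data known.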

Additional observations from a re-analysis of the deposited data

How the results depend on the processing

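The main test called 40 of 276 loci, 22 higher and 18 lower. The split moved with scaling: 21 higher and 27 lower with DESeq2 size factors, 57 and 8 of 65 with total counts, 48 and 9 with the upper quartile, and 38 and 14 without dominant loci. The median log2 fold change of all loci was 0.08 in the main test and 0.38, 0.32 and 0.21 with the last 3, so part of the members' movement there is this common shift. Counts were 26 with a mean CPM of at least 10 (128 loci tested), 19 with the replicate block, and 8 to 122 with a library left out. Of the miR-30 loci 4 passed, against 1 with the DESeq2 test, 1 with the replicate block, 2 with 1 locus per mature sequence (5 tested), and 0 to 6 with a library left out; the cause was not tested, except that the copies of miR-30c count once in the third. The members that departed from their family numbered 2, and 0 to 2 with a library left out. With the replicate block miR-30c and miR-30e lost their call (edgeR adjusted p = 0.0630 for both), while both departures kept theirs. The labels give same-numbered libraries a common number and do not say that they are paired. Their deviations from the group means had a correlation of 0.01 over loci. With 1 difference per group this value cannot decide whether they are paired. The step in the family's share was -0.92 points, -0.22 with every listed locus and -4.02 without dominant sequences. Counting both miR-30c loci changed the steps within the family to 8.29 points for miR-30c, from 4.77, to 0.68 for miR-30b, from 0.80, to -2.14 for miR-30e, from -0.18, and to -0.10 for miR-30d, from 0.40, which turned its direction. None of these settings turned the direction of a member's fold change or of a genomic pair's ratio. A lone library left in a group is assumed to vary like the other group. With 2 libraries per group the spread between libraries, more than depth, limits the precision.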
